A study of Homo sapiens with 12 samples.

Results

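Small nuclear ribonucleoproteins (snRNPs) are the RNA and protein particles from which the spliceosome is built. The genes of 47 of their proteins, out of 60106 genes counted, were followed in 2 established human prostate cancer cell lines after FOXA1 knockdown. The members were chosen by gene name and were grouped by particle: 8 Sm core genes, 3 U1 genes, 3 LUC7-like genes, 2 U2-specific genes, 3 SF3A genes, 7 SF3B genes, 5 genes of branch point and 3′ splice site recognition, 8 LSm genes, 2 U7 genes, 3 genes of the U5 and tri-snRNP, and 3 U11 genes. All 47 were found in the tables, and all 47 passed the filter on low counts in each line.

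Each Sm-class snRNP carries a uridine-rich small nuclear RNA held in a ring of Sm proteins, plus proteins of its own. U1 pairs with the 5′ splice site, U2 pairs with the branch point with the help of SF3A and SF3B, and the U4/U6.U5 tri-snRNP then joins. U6 carries an LSm ring in place of the Sm ring. A separate minor spliceosome with U11 and U12 removes a rare class of introns, and the U7 snRNP processes the 3′ end of histone messages. FOXA1 is a forkhead transcription factor that opens chromatin for other transcription factors in prostate cells.

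PC3, a line from a bone metastasis, was transfected with 20 nM siRNA and grown in RPMI. VCaP, a line from a vertebral metastasis, was transfected with 40 nM siRNA and grown in DMEM. In each line 3 libraries came from a non-targeting siRNA (NSI) and 3 from an siRNA against FOXA1 (siFOXA1), all taken 72 hours after transfection with RNAiMax; no untransfected group was used here. PC3 libraries were made with a stranded mRNA kit and counted without regard to strand, and VCaP libraries were made with a total RNA kit and counted by strand, so the line cannot be told apart from the kit, the dose, the medium and the counting. The labels do not say whether replicates were separate cultures, so the p-values measure the spread between these libraries, which may be technical.

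PC3 libraries held 123140099 to 188226483 counts each, and VCaP libraries held 48187047 to 59839211. The FOXA1 level was 303, 244 and 266 CPM (counts scaled to a common library size) in PC3 NSI and 163, 182 and 162 in PC3 siFOXA1. In VCaP it was 458, 468 and 544 CPM in NSI and 85.2, 73.6 and 83 in siFOXA1, so the groups were apart in each line and the remaining share was larger in PC3 (62.3%) than in VCaP (16.5%). The lines carried their own markers: TMPRSS2 averaged 117 CPM in VCaP NSI and 0.358 in PC3 NSI, while VIM averaged 748 CPM in PC3 NSI and 0.26 in VCaP NSI. TGFBI, listed as a PC3 marker, was near 0 in PC3 (0.083 CPM on average). Of the markers of other cell types, the 4 fibroblast genes summed to 23 to 27.1 CPM in PC3 NSI and 39.9 to 44.4 in PC3 siFOXA1, and to 10.7 to 19.3 in VCaP NSI and 1.19 to 5.41 in VCaP siFOXA1. The 3 leukocyte genes stayed at or below 3 CPM in sum in every library of either line, and the 2 endothelial genes found stayed at or below 4.56. The part of these markers in the results was not tested.

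In PC3 the snRNP protein genes were mostly lower after the knockdown. A call here means an adjusted p under 0.05 in edgeR's quasi-likelihood test, adjusted by Benjamini-Hochberg over all genes tested in that line, and every adjusted p below is of this kind. Changes are log2 fold changes, siFOXA1 against NSI, with their standard error (SE). Of the 47 genes 19 fell, 1 rose (LUC7L3) and 27 were not called, which is 42.6% called against 27.7% of all 26478 genes tested. The falling genes made up 40.4% of the members, against 13.9% of all genes, and the rising share of all genes was also 13.9%. Fold changes were negative for 43 of the 47, with a median log2 fold change of −0.34 beside −0.01 for all genes. The largest fall was that of SNRNP25 at −0.99 and the only called rise was 0.48. In 27 of the 47 every siFOXA1 library lay below every NSI library, and in 1 every one lay above, together 59.6% of members against 45.1% of all genes.

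In VCaP 22 of the 47 fell, 1 rose (SNRPB2) and 24 were not called. The called share, 48.9%, was close to the 45.8% of all 22939 genes tested. The falling share was 46.8% against 23.3% of all genes, while 22.5% of all genes rose. The median log2 fold change was −0.16 beside 0.02 for all genes, with 34 of 47 negative and a range from −1.27 (LSM11) to 0.39 (SNRPB2). The libraries of the groups did not overlap for 30 members, 24 lower and 6 higher, which is 63.8% against 55.9% of all genes. With upper-quartile scaling the VCaP calls split into 17 lower and 4 higher: SNRPD1, SNRPE, LUC7L2, U2AF2 and U2SURP were no longer called, and SNRPA1, SF3A1 and SF3B5 were called higher. The called share was then 44.7% of the members, against 46.1% of all genes.

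The calls in VCaP numbered 16 to 22 when any 1 library was left out. The called share of the members was below that of all genes without siFOXA1 replicate 2 (34% against 37.2%). It was also below without siFOXA1 replicate 3 (40.4% against 42%). Without NSI replicates 1, 2 and 3 the shares were 46.8% against 38.7%, 44.7% against 42.2% and 42.6% against 42%. Without siFOXA1 replicate 1 they were 42.6% against 38.8%. Without siFOXA1 replicate 2, SNRPD1, SNRPD2, SNRPE, LUC7L2, U2AF2, U2SURP and LSM2 were lost. SNRPD1, SNRPE, U2AF2 and U2SURP were also lost without NSI replicate 3 or siFOXA1 replicate 3. U2AF2 and U2SURP were lost without NSI replicate 1, SNRPE, LUC7L2 and U2SURP without NSI replicate 2, and SNRPD1, SNRPD2, LUC7L2 and U2AF2 without siFOXA1 replicate 1. The other 16 called genes were called in each of these 6 fits.

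The calls in PC3 numbered 5 to 29 when 1 library was left out. Without PC3 siFOXA1 replicate 1 only LUC7L3, SF1, U2AF2, SNRNP40 and SNRNP25 were still called, 5 in all or 10.6%, while 14.7% of all genes were called. Without siFOXA1 replicate 3 the count was 8, these 5 with SNRPA, SNRPC and SF3B3, or 17% of the members against 18.8% of all genes. Without NSI replicate 2 it was 12, after SNRPD1, SNRPE, SNRPB2, PHF5A, U2AF1, PUF60, LSM2 and LSM7 were lost, which is 25.5% of the members against 27.9% of all genes. Without NSI replicate 3 it was 11, after the loss of those 8 and SNRNP200, or 23.4% against 17.4%. SNRPB2, LSM2 and SNRNP200 were lost without NSI replicate 1. Without siFOXA1 replicate 2 the count was 29, with 10 genes added and SNRNP200 lost, or 61.7% against 24.5%. So in 3 of the 6 fits with a library left out the called share of the members was below that of all genes. With library size alone as the scaling, 12 members were called, 25.5% against 27.1% of all genes. Replicate 2 was the highest NSI library for 34 of the 47 members and the highest siFOXA1 library for 36, and it had the lowest total count of each PC3 group (141593267 and 123140099). The part of depth in this was not tested. Same-numbered PC3 libraries deviated together, and adding the replicate number to the model (the replicate block) called 34 lower and 1 higher, against 42.8% of all genes. The 15 genes added by the block were SNRPN, SNRPD2, SNRPD3, SNRPF, SNRPG, SNRNP70, LUC7L, SF3A2, SF3B5, SF3B6, LSM1, LSM5, LSM6, LSM8 and SNRNP48, all lower.

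**Figure D1:**
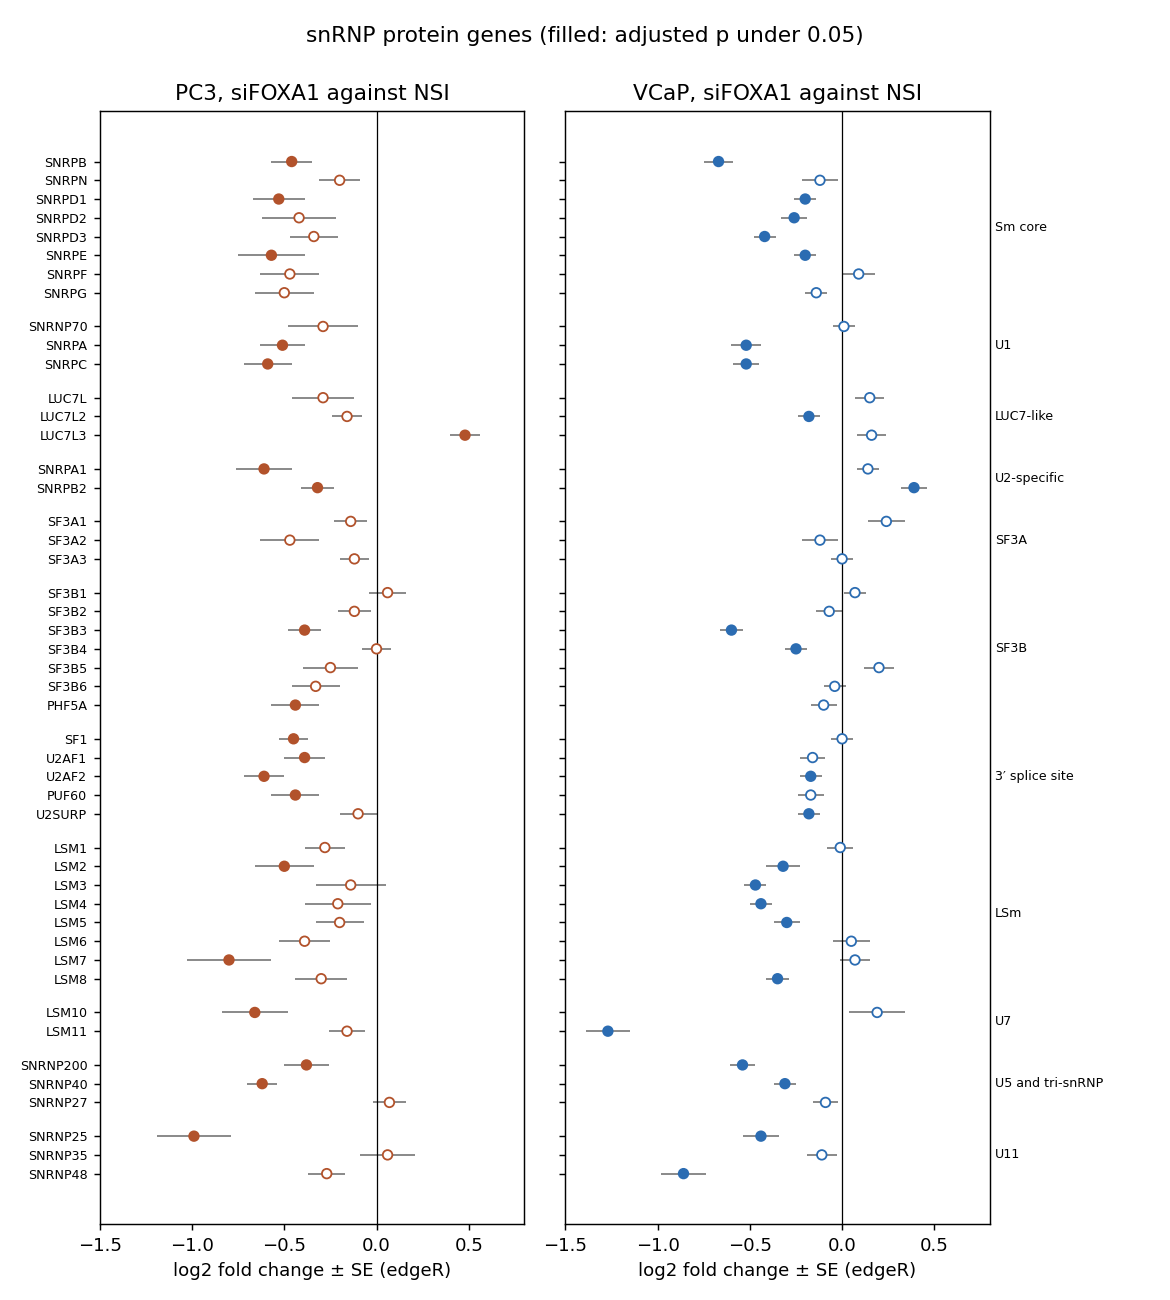
The log2 fold change of each of the 47 genes, siFOXA1 against NSI, is drawn with its standard error for PC3 (left) and VCaP (right), 3 libraries a group, with genes in order of particle. Filled points passed an adjusted p of 0.05; in PC3 most points lie between −0.99 and 0 and LUC7L3 stands at 0.48, while in VCaP LSM11 lies at −1.27 and SNRPB2 at 0.39.

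Among the members 11, or 23.4%, fell in both lines, against 6.48% of the 19282 genes tested in both. These were SNRPB, SNRPD1 and SNRPE of the Sm core, SNRPA and SNRPC of U1, SF3B3, U2AF2, LSM2, SNRNP200, SNRNP40 and SNRNP25. None rose in both lines, against 4.57% of all genes. One, SNRPB2, was called in opposite directions. The count of 11 fell to 3 (6.38% against 2.97% of all genes) without PC3 siFOXA1 replicate 1, where U2AF2, SNRNP40 and SNRNP25 were left. It was 6 (12.8%) without PC3 siFOXA1 replicate 3 and with upper-quartile scaling, against 4.31% and 4.94% of all genes. It was 7 (14.9%) without PC3 NSI replicate 3, without VCaP siFOXA1 replicate 2 and in the fit of all 12 libraries. The shares of all genes there were 4.13%, 5.22% and 3.39%. In the other alternatives it was 8 to 15 (17% to 31.9%), against 3.3% to 11.1% of all genes. SNRNP40 was among the members lower in both lines in all of these settings. There were 8 called in PC3 alone (17%), 11 called in VCaP alone (23.4%) and 16 called in neither (34%). The matching shares of all genes were not worked out, so these counts are a description.

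The sequence upstream of the start site was read for the 40 of the 47 members that the RefSeq promoter table holds (assembly GRCh38.p14), as the 250 bases before the annotated start. The forkhead core letters TGTTTAC were found, on either strand, in 1 of the 40 windows (SNRNP27, called in neither line), or 2.5% against 2.98% of all 27305 windows, and TGTTTGC was found in 0 of 40 against 3.19%. CCAAT was present in 17 of the 40 (42.5% against 33%) and GGGCGG in 25 (62.5% against 42.3%). The members' windows had a median GC content of 60.4%, beside 58% for all windows. These are matches of letters and not sites, and a missing match says only that the letters are not in the window. Shown here are the upstream sequences of 6 members that differ in their response: 3 that fell in both lines (SNRNP40, SNRPC, SNRNP200), the one that moved in opposite directions (SNRPB2), and the 2 U7 genes, whose responses differed between the lines in opposite senses (LSM11, LSM10). The part of each window that lies in counted exons of the gene, or of another protein-coding gene, was left off; for SNRNP40 the far end reaches the divergent gene ZCCHC17. Capitals mark the 4 searched motifs on either strand, none of which overlapped another motif. Each window was found once in GRCh37, and positions are given on that build, 5′ to 3′ on the strand of the gene.
SNRNP40, chr1:31769636-31769828, minus strand: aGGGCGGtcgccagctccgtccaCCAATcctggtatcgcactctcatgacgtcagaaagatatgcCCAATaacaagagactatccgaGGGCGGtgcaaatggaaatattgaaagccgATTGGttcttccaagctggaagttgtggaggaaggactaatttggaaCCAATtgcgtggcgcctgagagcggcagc
SNRNP200, chr2:96971285-96971534, minus strand: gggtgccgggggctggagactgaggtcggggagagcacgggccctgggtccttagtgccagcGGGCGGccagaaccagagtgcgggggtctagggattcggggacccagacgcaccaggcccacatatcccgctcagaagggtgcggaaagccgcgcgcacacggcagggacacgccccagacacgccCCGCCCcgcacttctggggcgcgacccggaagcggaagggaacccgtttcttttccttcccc
SNRPC, chr6:34725032-34725182, plus strand: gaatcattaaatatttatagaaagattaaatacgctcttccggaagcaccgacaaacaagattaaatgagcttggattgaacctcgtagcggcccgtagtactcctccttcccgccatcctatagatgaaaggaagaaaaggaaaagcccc
SNRPB2, chr20:16710421-16710605, plus strand: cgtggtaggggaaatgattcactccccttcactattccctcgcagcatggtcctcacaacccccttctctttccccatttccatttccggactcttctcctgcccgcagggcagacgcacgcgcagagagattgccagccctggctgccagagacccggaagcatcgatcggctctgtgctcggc
LSM11, chr5:157170470-157170702, plus strand: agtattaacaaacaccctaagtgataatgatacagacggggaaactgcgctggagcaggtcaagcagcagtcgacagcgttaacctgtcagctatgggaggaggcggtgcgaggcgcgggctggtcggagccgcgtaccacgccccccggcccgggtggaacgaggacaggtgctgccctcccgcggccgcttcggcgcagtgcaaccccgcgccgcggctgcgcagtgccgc
LSM10, chr1:36863510-36863759, minus strand: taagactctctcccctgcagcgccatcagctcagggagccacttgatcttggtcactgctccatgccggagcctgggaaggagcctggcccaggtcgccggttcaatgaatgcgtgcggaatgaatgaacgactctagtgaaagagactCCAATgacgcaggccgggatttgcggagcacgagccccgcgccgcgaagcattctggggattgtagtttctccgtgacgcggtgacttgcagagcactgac
As printed, the SNRNP40 sequence holds 4 CCAAT and 2 GGGCGG, the SNRNP200 sequence 2 GGGCGG and the LSM10 sequence 1 CCAAT, while the sequences of SNRPC, SNRPB2 and LSM11 hold none of the 4 motifs. In the full windows of 250 bases GGGCGG was found in SNRNP40, SNRNP200, SNRPC and LSM11. The copies of SNRPC and LSM11 reach into the 99 and 17 bases left off, so they are not marked above. Of the other genes that fell in both lines, SNRPA, U2AF2, LSM2 and SNRNP25 held GGGCGG and SNRPB and SNRPE did not. SNRPD1 and SF3B3 had no window to read.

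The Sm core genes encode the proteins of the ring that all Sm-class snRNPs share. In PC3 3 of the 8 fell and in VCaP 5 fell, and none was called higher in either line. The falling share was 37.5% in PC3, against 13.9% of all genes, and 62.5% in VCaP, against 23.3%. Of all genes 27.7% and 45.8% were called in either direction. All 8 fell in PC3 with the replicate block, where 42.8% of all genes were called. SNRPB (chromosome 20, 2442280 to 2451499, minus strand, GRCh37), which encodes SmB and SmB′, stood at 119, 147 and 126 CPM in PC3 NSI and 86.3, 106 and 91.9 in siFOXA1, a log2 fold change of −0.46 (adjusted p = 0.0178, SE = 0.11). In VCaP the values were 106, 92.6 and 103 CPM in NSI and 65.1, 67.5 and 56.4 in siFOXA1, a change of −0.67 (adjusted p = 0.000155, SE = 0.08). The groups did not overlap in either line, and the VCaP fall was the largest of the Sm core. Of the SNRPB exon bases 13.2% are shared with another gene on the same strand.

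SNRPD1, which encodes SmD1, the partner of SmD2 in the ring, stood at 87.2, 113 and 93.1 CPM in PC3 NSI and 63, 79.6 and 61.1 in siFOXA1, a change of −0.53 (adjusted p = 0.0212, SE = 0.14). Its VCaP values, 50.0, 51 and 56.3 against 46.7, 46.6 and 43.7 CPM, gave a smaller change of −0.20 (adjusted p = 0.0282, SE = 0.06). SNRPE, which encodes SmE, had 38, 55.5 and 41.5 CPM in PC3 NSI and 27.8, 37.4 and 25.9 in siFOXA1, where siFOXA1 replicate 2 lay just under the lowest NSI library, with a change of −0.57 (adjusted p = 0.0428, SE = 0.18). Its VCaP values were 28.7, 30.1 and 32.2 and 27.5, 25.7 and 26 CPM, a change of −0.20 (adjusted p = 0.029, SE = 0.06). For both genes every siFOXA1 library was below every NSI library in each line. For SNRPE 2 annotated pseudogenes carry its name, so its counts are less certain.

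SNRPF, which encodes SmF, was called in the test of the difference between the lines. With the replicate block SNRPD1, SNRPE and SNRPG were called there too (adjusted p = 0.03, 0.0199 and 0.00973). It stood at 105, 149 and 113 CPM in PC3 NSI and 81.2, 105 and 79.3 in siFOXA1, with replicate 2 the highest in each group, and at 11.9, 12.9 and 13.1 CPM in VCaP NSI and 12.5, 13 and 14.9 in siFOXA1. The PC3 change of −0.47 (adjusted p = 0.0541, SE = 0.16) missed the threshold and passed it with the replicate block (adjusted p = 0.000381). The VCaP change was 0.09 (adjusted p = 0.419, SE = 0.09), and the VCaP minus PC3 difference was 0.55 (adjusted p = 0.0477, SE = 0.19), called in 10 of 22 alternatives. SNRPF carries 1 pseudogene of its name, and 5.02% of its exon bases face a gene on the other strand, which the unstranded PC3 counts cannot separate.

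SNRPD2 and SNRPD3 fell in VCaP, with log2 changes of −0.26 (adjusted p = 0.018, SE = 0.07) and −0.42 (adjusted p = 0.000317, SE = 0.06). In PC3 they were not called at −0.42 and −0.34, and were lower with the block. The SNRPD3 exons face another gene over 17% of their bases, which the unstranded PC3 counts cannot separate. SNRPG was called in neither line, with a PC3 change of −0.50 just past the threshold (adjusted p = 0.0504) and a VCaP change of −0.14, and was lower in PC3 with the block. Its counts are less certain too, as 2 annotated pseudogenes carry its name. SNRPN, an imprinted gene that encodes the SmB relative SmN and is known for its expression in brain, stood at 57.9, 68.6 and 67.2 CPM in PC3 NSI and 52.2, 62.8 and 53.6 in siFOXA1. In VCaP it stood at 227, 177 and 177 CPM in NSI and 187, 185 and 164 in siFOXA1. The groups overlapped in both lines and neither change was called, at −0.20 and −0.12, although the block called the PC3 fall (adjusted p = 0.0327). Of the SNRPN exon bases 10.3% are shared with other genes on the same strand. So SmB messages fell in both lines while the change of SmN messages was not called in either; the difference between the 2 genes was not tested.

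Per kilobase of counted exon, SNRPB was the most abundant Sm gene in the NSI libraries of each line, at 113 ± 12.6 CPM per kb (SD, n = 3) in PC3 and 87 ± 6.02 in VCaP. In PC3 it was followed by SNRPD2 (69.4 ± 13.5), SNRPD3 (61.1 ± 9.34), SNRPF (54.4 ± 10.3), SNRPE (45.9 ± 9.44), SNRPG (33.5 ± 6.14), SNRPN (20.5 ± 1.84) and SNRPD1 (20.0 ± 2.81). Neighbours from SNRPD2 to SNRPE were within 1 SD of each other, as were SNRPN and SNRPD1. In VCaP SNRPD2 (78 ± 6.29) came next, then SNRPN (61.6 ± 9.1), SNRPD3 (41.7 ± 1.39), SNRPE (30.9 ± 1.79), SNRPG (28.4 ± 0.829), SNRPD1 (10.7 ± 0.693) and SNRPF (5.61 ± 0.27). No neighbours in the VCaP order were within 1 SD of each other. SNRPN was thus next to last in PC3 and the third in VCaP. The counted length takes in every annotated exon, so a gene with long or rarely used exons, such as SNRPD1 with 4909 counted bases, reads low on this scale.

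**Figure D2:**
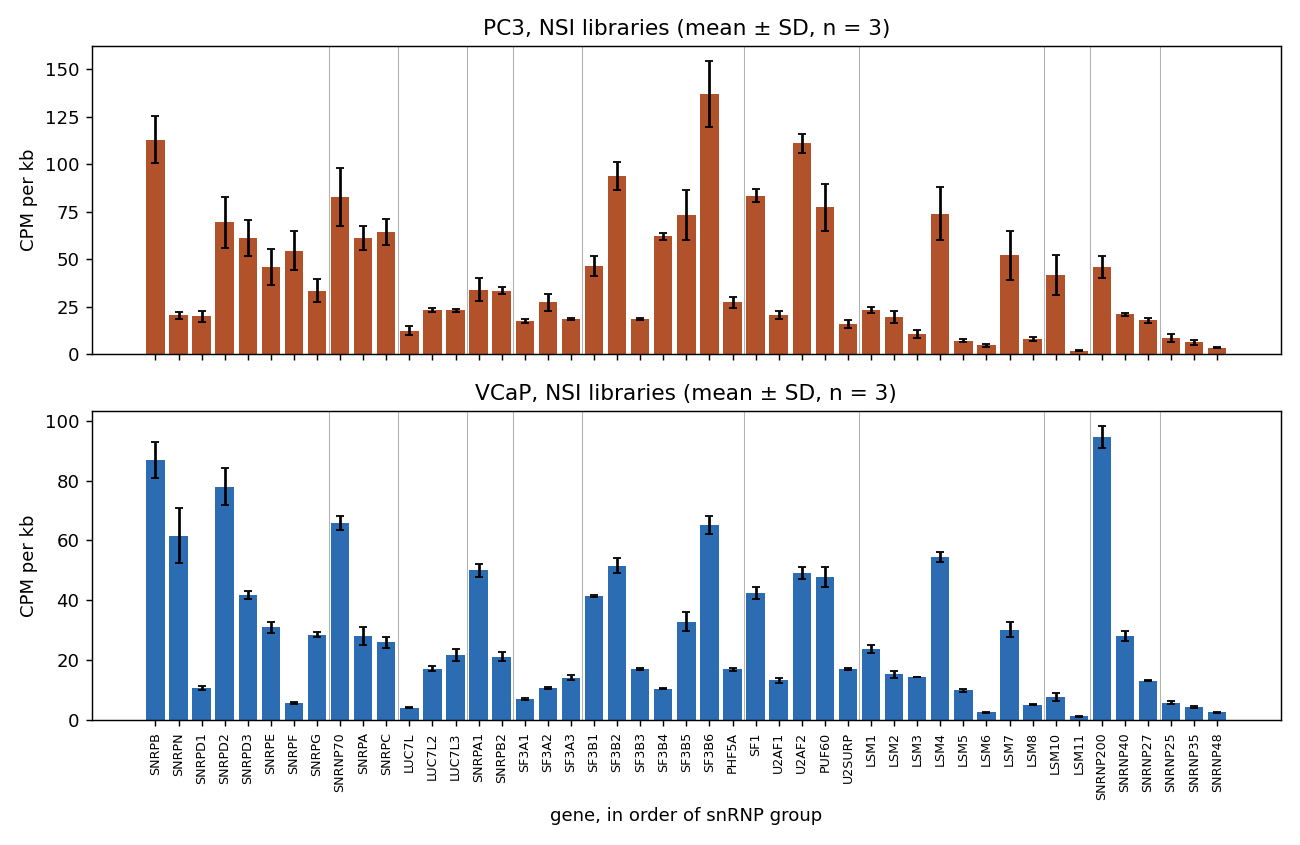
Bars give the mean CPM per kilobase of counted exon in the 3 NSI libraries of PC3 (top) and VCaP (bottom), with the SD as error bar, for all 47 genes in order of particle; the axes start at 0 and differ between the panels. SF3B6 and SNRPB are among the tallest bars in PC3, at 137 and 113, and SNRNP200 is the tallest in VCaP, at 94.6.

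U1 has 3 proteins of its own. SNRPA encodes the U1 protein A, which binds a stem loop of U1 RNA, and SNRPC encodes the U1 protein C, which steadies the pairing of U1 with the 5′ splice site. SNRPA stood at 91.5, 111 and 94.8 CPM in PC3 NSI and 62.9, 78.6 and 66.9 in siFOXA1, and at 43, 42.3 and 51 CPM in VCaP NSI and 32, 31.9 and 31.6 in siFOXA1. It fell by nearly the same amount in the lines, −0.51 (adjusted p = 0.0122, SE = 0.12) in PC3 and −0.52 (adjusted p = 0.000486, SE = 0.08) in VCaP, and the difference between lines was −0.02 (adjusted p = 1, SE = 0.15). The 3 VCaP siFOXA1 libraries lay within 31.6 to 32 CPM, far below the lowest NSI library.

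SNRPC (chromosome 6, 34725183 to 34741571, plus strand, GRCh37) stood at 69.2, 85.6 and 76.2 CPM in PC3 NSI and 45.6, 59.9 and 47.8 in siFOXA1, a change of −0.59 (adjusted p = 0.00991, SE = 0.13). Its VCaP levels were 30.6, 29.1 and 33.6 CPM in NSI and 22.1, 21.9 and 21.2 in siFOXA1, a change of −0.52 (adjusted p = 0.000247, SE = 0.07). No siFOXA1 library reached the lowest NSI library in either line. SNRPA and SNRPC each lost their PC3 call in 1 of the 16 alternatives, the fit without siFOXA1 replicate 1, and kept their VCaP call in all 16.

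SNRNP70, which encodes U1-70K, the U1 protein that contacts SR proteins, was not called in either line. It stood at 121, 166 and 124 CPM in PC3 NSI and 104, 145 and 87 in siFOXA1, where replicate 2 was again the highest of each group and the groups overlapped. The VCaP values were 105, 111 and 112 CPM in NSI and 115, 110.4 and 104 in siFOXA1. The changes were −0.29 (adjusted p = 0.292, SE = 0.19) in PC3, with an adjusted p of 0.00936 in the block, and 0.01 (adjusted p = 0.955, SE = 0.06) in VCaP. The fall of SNRPA and SNRPC messages in each line was thus not joined by a called fall of SNRNP70; the difference between the genes was not tested.

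The LUC7-like genes encode relatives of yeast Luc7, a U1 protein that influences which 5′ splice sites are used. LUC7L3 was the only one of the 47 called higher in PC3. It stood at 162, 159.9 and 172 CPM in PC3 NSI and 236, 238 and 216 in siFOXA1, a change of 0.48 (adjusted p = 0.00384, SE = 0.08) that was called in all 16 alternatives. In VCaP the groups overlapped, at 157, 168 and 139.8 CPM in NSI and 181, 177 and 160.4 in siFOXA1, and the change of 0.16 (adjusted p = 0.159, SE = 0.08) was not called. The difference between the lines, −0.34 (adjusted p = 0.0595, SE = 0.12), missed the threshold and passed it in 8 of 22 alternatives, the block among them. LUC7L was not called, at −0.29 in PC3 and 0.15 in VCaP, and was lower in PC3 with the block. LUC7L2 fell in VCaP, at −0.18 (adjusted p = 0.0263, SE = 0.06), and was not called in PC3 at −0.16; 45.6% of its exon bases are shared with a readthrough gene, and summing the pair changed no call.

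SNRPA1 and SNRPB2 encode the U2 proteins A′ and B″, which bind a stem loop of U2 RNA as a pair, and both differed between the lines. SNRPB2 (chromosome 20, 16710606 to 16723208, plus strand, GRCh37) stood at 78.5, 87.9 and 81.8 CPM in PC3 NSI and 62.4, 72.5 and 63.6 in siFOXA1, a change of −0.32 (adjusted p = 0.0334, SE = 0.09). In VCaP it rose from 48.1, 55.6 and 51.9 CPM in NSI to 70.4, 68.5 and 64.4 in siFOXA1, a change of 0.39 (adjusted p = 0.00142, SE = 0.07). The groups did not overlap in either line and lay in opposite order. The VCaP rise was called in all 16 alternatives, while the PC3 fall was called in 7 of 16 and lost when any one of the PC3 libraries other than siFOXA1 replicate 2 was left out. Between the lines the effect differed by 0.69 (adjusted p = 0.000587, SE = 0.12), which was called in all 22 alternatives.

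SNRPA1 stood at 32.2, 43.4 and 32.5 CPM in PC3 NSI and 23.1, 27.4 and 20.4 in siFOXA1, a change of −0.61 (adjusted p = 0.0173, SE = 0.15). Its VCaP values, 54.7, 54.3 and 50.5 CPM in NSI and 59.4, 59.9 and 56.3 in siFOXA1, did not overlap and lay higher after the knockdown, with an uncalled change of 0.14 (adjusted p = 0.0766, SE = 0.06). The PC3 fall lost its call without siFOXA1 replicate 1 or without siFOXA1 replicate 3. VCaP minus PC3, the effect was 0.74 (adjusted p = 0.00453, SE = 0.17), called in all 22 alternatives.

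**Figure D3:**
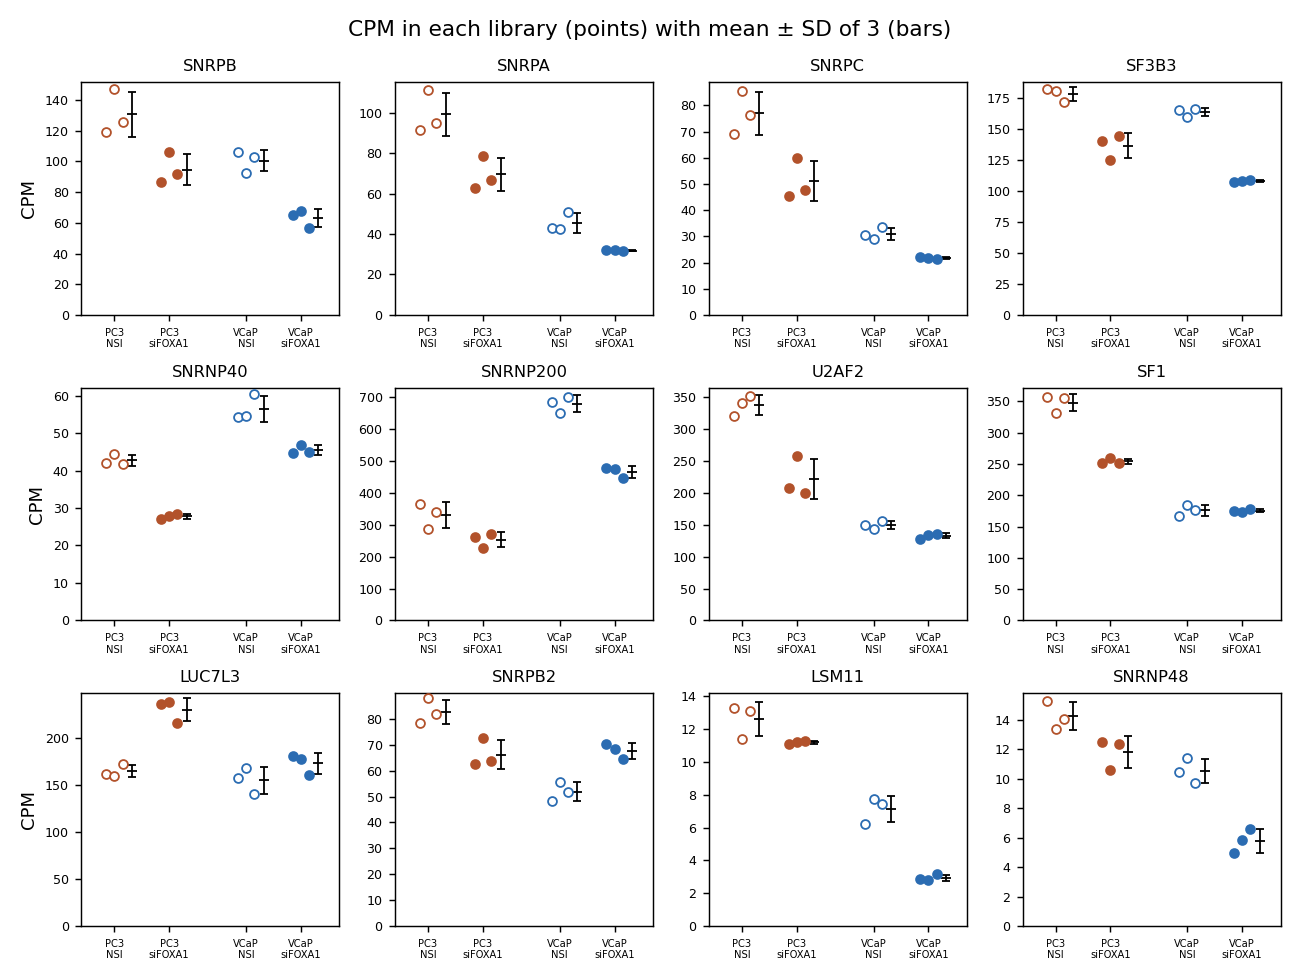
CPM in each library is drawn for 12 of the genes, with open points for NSI and filled points for siFOXA1, PC3 in brown and VCaP in blue, and a bar for the mean ± SD of 3 libraries; each axis starts at 0. SF3B3, SNRNP40, SNRPA and SNRPC are lower after the knockdown in both lines, LUC7L3 is higher in PC3, and SNRPB2 is lower in PC3 and higher in VCaP.

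SF3A and SF3B are the complexes that hold U2 on the branch point. None of the 3 SF3A genes was called in either line. SF3A1, SF3A2 and SF3A3 had PC3 changes of −0.14, −0.47 and −0.12 and VCaP changes of 0.24, −0.12 and 0.00. With the block SF3A2 was lower in PC3 (adjusted p = 0.00327) and SF3A1 was higher in VCaP (adjusted p = 0.013). The VCaP groups of SF3A1 did not overlap, and it was called there in 5 of 16 alternatives. The SF3A2 exons face another gene over 20.3% of their bases, which matters for the unstranded PC3 counts. For SF3A3 2 annotated pseudogenes carry its name, so its counts are less certain.

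Of the 7 SF3B genes 2 fell in each line, and SF3B3 was the one they had in common. That is 28.6% called, near the 27.7% of all genes in PC3 and below the 45.8% in VCaP. The falling shares of all genes were 13.9% and 23.3%. SF3B3 (chromosome 16, 70557691 to 70611571, plus strand, GRCh37) encodes the large WD-repeat protein on which SF3B1 rests and which is also part of a chromatin complex. It stood at 182, 181 and 172 CPM in PC3 NSI and 140.2, 125 and 144 in siFOXA1, a change of −0.39 (adjusted p = 0.012, SE = 0.09). In VCaP the level went from 165, 160.1 and 166 CPM in NSI to 107, 108 and 109 in siFOXA1, a change of −0.60 (adjusted p = 2.82e-05, SE = 0.06), with every siFOXA1 library at or under 109 CPM. The gap between the groups was many times the spread within either VCaP group. Only the fit without siFOXA1 replicate 1 lost the PC3 call.

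SF3B1 encodes the subunit that grips the branch point helix and is recurrently mutated in several cancers. It stood at 413, 329.9 and 390.1 CPM in PC3 NSI and 401, 385 and 391 in siFOXA1, and at 341, 339 and 334 in VCaP NSI and 359.5, 359 and 348 in siFOXA1. The changes of 0.06 (adjusted p = 0.711, SE = 0.10) and 0.07 (adjusted p = 0.356, SE = 0.06) were not called, although the VCaP groups did not overlap. PHF5A, the small zinc finger protein that lies against SF3B1, fell in PC3 (−0.44 (adjusted p = 0.0397, SE = 0.13)) and was not called in VCaP (−0.10). SF3B4, which binds upstream of the branch point, fell in VCaP (−0.25 (adjusted p = 0.0108, SE = 0.06)) and was at 0.00 in PC3. SF3B2, SF3B5 and SF3B6 were called in neither line, with PC3 changes of −0.12, −0.25 and −0.33 and VCaP changes of −0.07, 0.20 and −0.04; the block added SF3B5 and SF3B6 as lower in PC3. The single-exon gene SF3B5 was the only one of these 3 whose VCaP groups did not overlap. It was called higher in VCaP with the block (adjusted p = 0.0475), and was called there in 3 of 16 alternatives.

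The proteins that first mark the 3′ end of the intron are SF1, on the branch point, and U2AF, on the polypyrimidine tract and the AG that follows. In PC3 4 of the 5 genes of this group fell, and in VCaP 2 fell. The falling share was 80.0% in PC3, against 13.9% of all genes, and 40.0% in VCaP, against 23.3%. Of all genes 27.7% and 45.8% were called in either direction. SF1 stood at 357, 332 and 355 CPM in PC3 NSI and 251, 259 and 252 in siFOXA1, a change of −0.45 (adjusted p = 0.00389, SE = 0.08) called in all 16 alternatives. In VCaP the groups overlapped fully, at 167, 184 and 177 CPM in NSI and 175, 174 and 178 in siFOXA1, with a change of 0.00 (adjusted p = 0.982, SE = 0.06). The difference between the lines was 0.44 (adjusted p = 0.00788, SE = 0.11), and it missed the threshold in 1 of 22 alternatives, without PC3 NSI replicate 3.

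U2AF2, which encodes the subunit on the polypyrimidine tract, stood at 320.2, 341 and 351 CPM in PC3 NSI and 208, 257 and 199 in siFOXA1, a change of −0.61 (adjusted p = 0.00492, SE = 0.11) that was called in all 16 alternatives. In VCaP it stood at 149, 143 and 156 CPM in NSI and 128, 134 and 136 in siFOXA1, a change of −0.17 (adjusted p = 0.0464, SE = 0.06) near the threshold and lost in 9 of 16 alternatives. So every siFOXA1 library lay below every NSI library in both lines, and the PC3 fall was the larger by 0.42 (adjusted p = 0.0317, SE = 0.13). That difference lost its call in 9 of 22 alternatives, among them the fits without any one of 8 single libraries.

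U2AF1, the subunit that reads the AG, was counted together with U2AF1L5, a copy whose exons cover 99.5% of its bases, so each fragment was split between them. The U2AF1 row stood at 35, 42.4 and 38.9 CPM in PC3 NSI and 27.3, 33.1 and 28.4 in siFOXA1, and the sum of both rows at 70.0, 84.7 and 77.7 CPM against 54.6, 66.1 and 56.8. In VCaP the U2AF1 row stood at 23.1, 24.9 and 26.5 CPM in NSI and 23.2, 21.5 and 21.9 in siFOXA1. The PC3 groups were apart and the change was −0.39 (adjusted p = 0.0291, SE = 0.11); the VCaP groups overlapped and the change of −0.16 (adjusted p = 0.0922, SE = 0.07) was not called. PUF60, a relative of U2AF2, fell in PC3 (−0.44 (adjusted p = 0.0406, SE = 0.13)) and was not called in VCaP (−0.17 (adjusted p = 0.0662, SE = 0.07)). U2SURP, a U2-associated protein of the SR type, was not called in PC3 (−0.10) and was just under the threshold in VCaP (−0.18 (adjusted p = 0.0499, SE = 0.06)); it lost that call in 12 of 16 alternatives, the one without mitochondrial genes among them.

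LSm proteins form 2 rings. The nuclear ring with LSM8 holds the 3′ end of U6, and the cytoplasmic ring with LSM1 takes part in the decay of messages; LSM2 to LSM7 serve in both. In PC3 2 of the 8 genes fell and in VCaP 5 fell, and LSM2 was the one called in each. These are 25% called in PC3, near the 27.7% of all genes, and 62.5% in VCaP, against 45.8%. The falling shares of all genes were 13.9% and 23.3%. LSM2 stood at 15.1, 20.5 and 16.3 CPM in PC3 NSI and 10.2, 14.7 and 11.7 in siFOXA1, a change of −0.50 (adjusted p = 0.0467, SE = 0.16), and at 13, 12.4 and 14.4 CPM in VCaP NSI and 11, 9.75 and 11.1 in siFOXA1, a change of −0.32 (adjusted p = 0.0151, SE = 0.09). The groups were apart in each line, by less than 1 CPM in PC3, where the call was lost without any one of 5 libraries.

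LSM3 and LSM4 were among the steadier falls in VCaP. LSM3 stood at 54, 54.1 and 55 CPM in VCaP NSI and 42.8, 37.9 and 37.1 in siFOXA1, a change of −0.47 (adjusted p = 0.000315, SE = 0.06). LSM4 stood at 104, 101 and 107 CPM in VCaP NSI and 79.9, 74.4 and 76 in siFOXA1, a change of −0.44 (adjusted p = 0.000264, SE = 0.06). In PC3 the groups overlapped for both genes, with LSM3 at 34.5, 50.6 and 37.5 CPM against 35.7, 46.6 and 29.3 and LSM4 at 119, 171 and 133 against 118, 151 and 96.7. Their PC3 changes of −0.14 (adjusted p = 0.628, SE = 0.19) and −0.21 (adjusted p = 0.416, SE = 0.18) were not called, nor with the replicate block. The differences between the lines were not called either, except for LSM3 with the block (adjusted p = 0.037) and without PC3 NSI replicate 2. The LSM3 exons face another gene over 8.34% of their bases, which the unstranded PC3 counts cannot separate.

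LSM7 had the opposite pattern. It stood at 25.9, 40.9 and 29 CPM in PC3 NSI and 16.7, 24.7 and 13.6 in siFOXA1, a change of −0.80 (adjusted p = 0.0346, SE = 0.23), and at 17.7, 17.4 and 20.1 CPM in VCaP NSI and 18.1, 19.1 and 21 in siFOXA1, a change of 0.07 (adjusted p = 0.505, SE = 0.08). As a difference between the lines this came to 0.86 (adjusted p = 0.0285, SE = 0.26), called in 15 of 22 alternatives. LSM5 and LSM8 fell in VCaP, at −0.30 (adjusted p = 0.00478, SE = 0.07) and −0.35 (adjusted p = 0.000945, SE = 0.06), and were at −0.20 and −0.30 in PC3, where they were not called. The block called both lower in PC3, and LSM8 was also called lower there without siFOXA1 replicate 2. LSM1 and LSM6 were called in neither line, at −0.28 and −0.39 in PC3 and −0.01 and 0.05 in VCaP, and the block called both lower in PC3. LSM8, which marks the nuclear ring, was thus called in VCaP, and LSM1, which marks the cytoplasmic one, was not. The difference between them was not tested. For LSM1 50.7% of the exon bases face genes on the other strand, which the unstranded PC3 counts cannot separate.

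The U7 snRNP replaces SmD1 and SmD2 with LSM10 and LSM11, and its 2 genes differed between the lines in opposite senses. LSM11 (chromosome 5, 157170703 to 157187717, plus strand, GRCh37) stood at 13.3, 11.4 and 13.1 CPM in PC3 NSI and 11.1, 11.2 and 11.3 in siFOXA1, an uncalled change of −0.16 (adjusted p = 0.235, SE = 0.10). In VCaP it went from 6.23, 7.72 and 7.45 CPM in NSI to 2.86, 2.82 and 3.15 in siFOXA1, a change of −1.27 (adjusted p = 2.48e-05, SE = 0.12) and the largest of the 47. That leaves 41.3% of the NSI mean, and the VCaP libraries held 142 to 429 counts of the gene. The difference between the lines was −1.13 (adjusted p = 7.38e-05, SE = 0.15), called in all 22 alternatives.

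LSM10 stood at 30.1, 45.6 and 30.5 CPM in PC3 NSI and 19.4, 25.9 and 22 in siFOXA1, a change of −0.66 (adjusted p = 0.0249, SE = 0.18), and NSI replicate 2 was far above the other NSI libraries. Its VCaP values of 6.5, 5.35 and 7.49 CPM in NSI and 6.41, 7.25 and 8.5 in siFOXA1 overlapped, with a change of 0.19 (adjusted p = 0.304, SE = 0.15). VCaP minus PC3 gave 0.84 (adjusted p = 0.0216, SE = 0.24), a difference that lost its call without PC3 siFOXA1 replicate 1, VCaP NSI replicate 2 or VCaP siFOXA1 replicate 3. The PC3 fall lost its call without siFOXA1 replicate 1 or without siFOXA1 replicate 3.

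SNRNP200 and SNRNP40 belong to U5 and fell in both lines. SNRNP200 encodes the helicase that unwinds U4 from U6. It stood at 366, 285 and 339 CPM in PC3 NSI and 261, 228 and 271 in siFOXA1, where replicate 2 was the lowest of each group, a change of −0.38 (adjusted p = 0.0392, SE = 0.12). In VCaP it went from 684, 649 and 701 CPM in NSI to 477, 473 and 445 in siFOXA1, a change of −0.54 (adjusted p = 0.000195, SE = 0.07). The groups were apart in both lines, and the PC3 call was lost in 7 of 16 alternatives.

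SNRNP40 (chromosome 1, 31732415 to 31769617, minus strand, GRCh37), a WD-repeat protein of U5, had the smallest adjusted p of the 47 in PC3. It stood at 41.9, 44.5 and 41.7 CPM in PC3 NSI and 27.1, 27.8 and 28.4 in siFOXA1, a change of −0.62 (adjusted p = 0.000837, SE = 0.08). In VCaP the values were 54.2, 54.6 and 60.4 CPM in NSI and 44.6, 46.9 and 45 in siFOXA1, a change of −0.31 (adjusted p = 0.00261, SE = 0.06). It was the only one of the 47 called in all 16 alternatives of each line. SNRNP27, which joins the tri-snRNP, was not called in PC3 (0.07) or VCaP (−0.09).

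The 3 U11 genes encode proteins of the minor spliceosome, in which U11 takes the place of U1. SNRNP25 stood at 7.74, 12 and 8.24 CPM in PC3 NSI and 3.88, 5.73 and 4.47 in siFOXA1, a change of −0.99 (adjusted p = 0.00762, SE = 0.20) and the largest of the 47 in PC3. In VCaP it stood at 6.63, 5.56 and 6.1 CPM in NSI and 4.63, 4.49 and 4.34 in siFOXA1, a change of −0.44 (adjusted p = 0.00608, SE = 0.10). The groups did not overlap in either line. The PC3 call held in all 16 alternatives and the VCaP call in 15, all but the fit over both lines.

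SNRNP48, which recognises the minor 5′ splice site, stood at 10.5, 11.4 and 9.73 CPM in VCaP NSI and 4.94, 5.82 and 6.61 in siFOXA1, a change of −0.86 (adjusted p = 0.00031, SE = 0.12). In PC3 it stood at 15.3, 13.4 and 14.1 CPM in NSI and 12.5, 10.6 and 12.4 in siFOXA1, a change of −0.27 (adjusted p = 0.0878, SE = 0.10) that the block called (adjusted p = 0.0157). The groups were apart in each line, and the VCaP fall was the larger by −0.61 (adjusted p = 0.0141, SE = 0.17), called in all 22 alternatives. SNRNP35, the minor counterpart of U1-70K, was not called in either line, at 0.06 and −0.11.

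**Figure D4:**
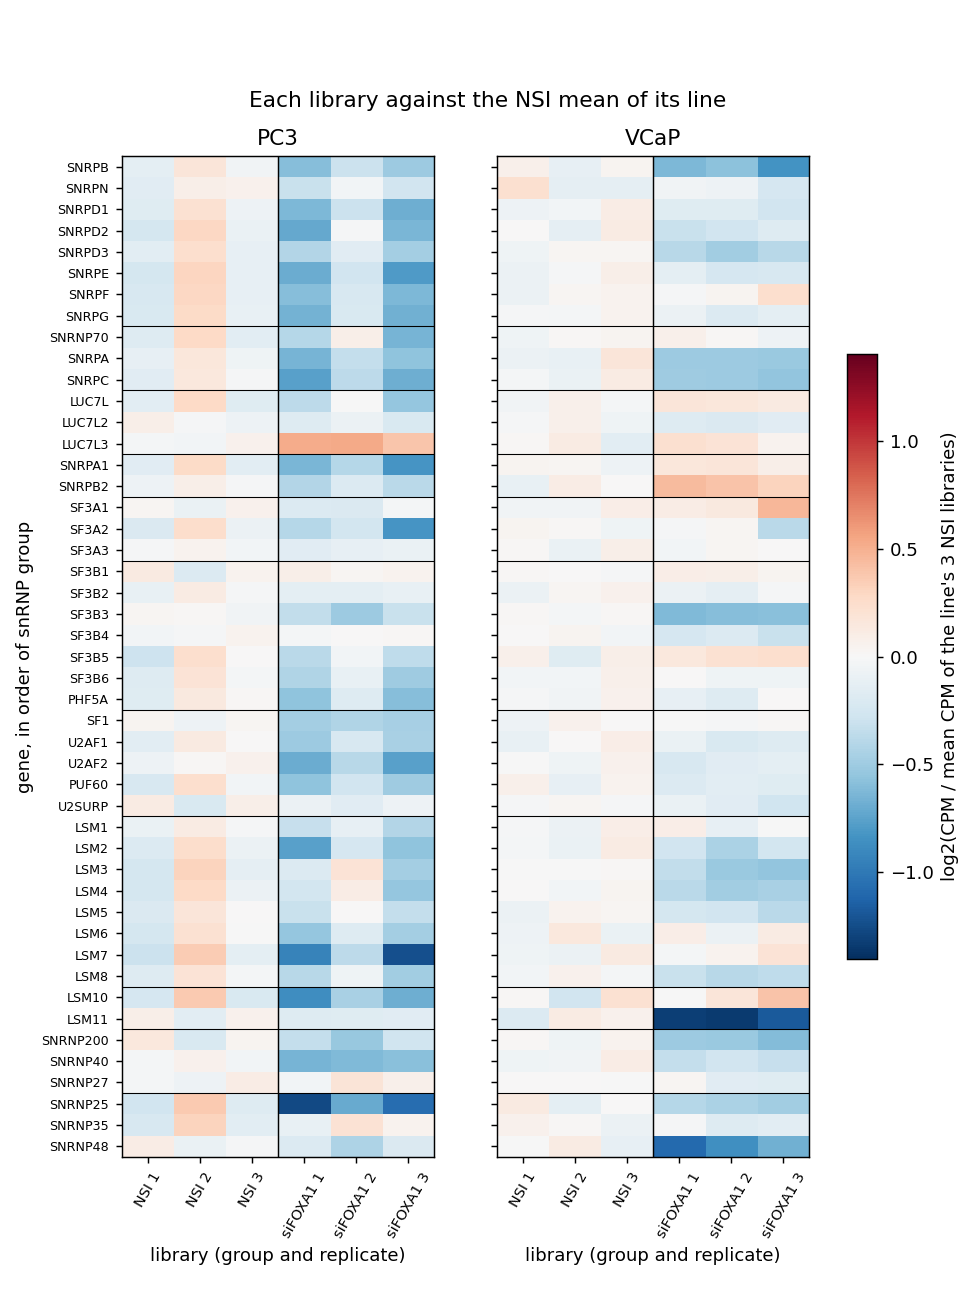
Each cell is the log2 ratio of the CPM in 1 library to the mean of the line's 3 NSI libraries, with genes in rows by particle and libraries in columns, blue for lower and red for higher. The median over the 47 genes was −0.40, −0.18 and −0.48 in the PC3 siFOXA1 libraries and 0.17 in PC3 NSI replicate 2, whose column is red for most genes, while in VCaP the siFOXA1 medians were −0.10, −0.17 and −0.17.

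The difference between the lines was tested for all 47 genes as the VCaP effect minus the PC3 effect in a fit of all 12 libraries. Of the 47, 9 were called, or 19.1%, against 22.1% of the 30450 genes tested, a share near the background. There were 7 with a higher response in VCaP, which are SNRPF, SNRPA1, SNRPB2, SF1, U2AF2, LSM7 and LSM10, and 2 with a lower one, LSM11 and SNRNP48. With DESeq2 size factors the split was 3 lower and 6 higher, and with library size alone it was 4 lower and 5 higher, after LUC7L3 and SF3B4 were called lower and SNRPF and U2AF2 were no longer called. With the replicate block 24 were called, 19 higher and 5 lower, or 51.1% against 29% of all genes. The 15 added were SNRPD1, SNRPE, SNRPG, SNRNP70, LUC7L, LUC7L3, SF3A1, SF3B4, SF3B5, SF3B6, PHF5A, LSM3, LSM6, SNRNP40 and SNRNP25. The count fell to 5, or 10.6% of the members, without PC3 siFOXA1 replicate 1, VCaP NSI replicate 2 or VCaP siFOXA1 replicate 3. In those fits 19.6%, 17.3% and 17.5% of all genes were called. Without PC3 siFOXA1 replicate 2 the count rose to 14, or 29.8% against 23.4% of all genes. SNRPA1, SNRPB2, LSM11 and SNRNP48 were called in all 22 alternatives.

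**Figure D5:**
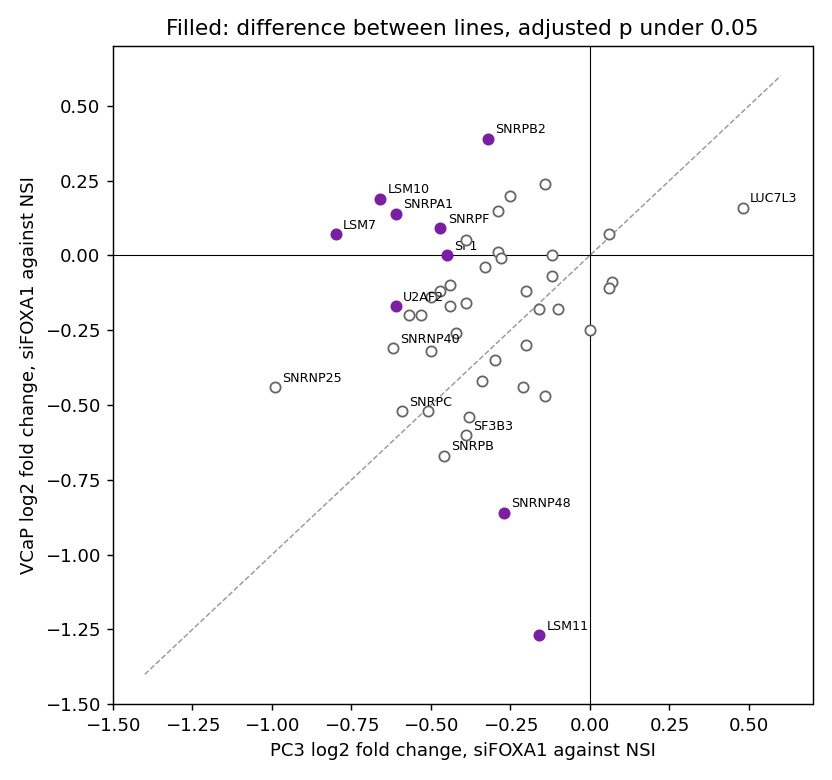
The log2 fold change of each of the 47 genes in VCaP (vertical) is plotted against that in PC3 (horizontal), siFOXA1 against NSI; the dashed line marks equal changes and filled points had a called difference between the lines. SNRPB2 lies at −0.32 in PC3 and 0.39 in VCaP, LSM11 at −0.16 and −1.27, and SNRNP25 at −0.99 and −0.44.

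Genes that work on these particles were taken from 5 lists, counted in the same fits. Among 21 genes listed under snRNP assembly, 10 fell and none rose in PC3, and 8 fell and none rose in VCaP. The called share was 47.6% in PC3, against 27.7% of all genes, and 38.1% in VCaP, below the 45.8% of all genes. The median log2 change of the list was −0.23 in PC3 and −0.10 in VCaP. SMN1, the core of the assembly complex, stood at 51, 50.1 and 52.1 CPM in PC3 NSI and 32, 36.3 and 35.6 in siFOXA1. The change was −0.56 (adjusted p = 0.00206, SE = 0.08). SMN1 and SMN2 are nearly identical copies, so fragments were split between them, and both count among the 10 PC3 falls. WDR77, the partner of the methylase PRMT5 that modifies Sm tails, stood at 39.9, 35.4 and 37.5 CPM in VCaP NSI and 23.1, 23.8 and 23.5 in siFOXA1, a change of −0.68 (adjusted p = 2.4e-05, SE = 0.06). WDR77 fell in PC3 too, at −0.45 (adjusted p = 0.00482, SE = 0.08). These lists were chosen with results of the same data in view, and their counts are a description.

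Of 19 accessory factors of U1 and U2, 2 fell and 1 rose in PC3, and 5 fell and 4 rose in VCaP, shares of 15.8% and 47.4% called that were below and near those of all genes. CHERP, a U2-associated protein, had the smallest adjusted p among the falls of each line, with changes of −0.40 (adjusted p = 0.022, SE = 0.10) and −0.37 (adjusted p = 0.000667, SE = 0.06). ZRSR2, a relative of U2AF1 that serves minor introns and is also counted in the minor spliceosome list, rose in PC3 (0.41 (adjusted p = 0.0495, SE = 0.13)), and RBM5 rose in VCaP (0.30 (adjusted p = 0.00388, SE = 0.06)). Of 10 partners of the cytoplasmic LSM ring in decay, 3 fell and 2 rose in PC3, and 3 fell and 1 rose in VCaP. That is 50.0% called in PC3, against 27.7% of all genes, and 40.0% in VCaP, below the 45.8% of all genes. XRN1, the 5′ to 3′ exonuclease, stood at 36.4, 22.6 and 34 CPM in PC3 NSI and 94.5, 71.2 and 96.2 in siFOXA1, a change of 1.49 (adjusted p = 0.00084, SE = 0.19), whereas in VCaP it fell, at −0.24 (adjusted p = 0.00728, SE = 0.06). EDC4 had the smallest adjusted p of the falls in PC3 (−0.36 (adjusted p = 0.0108, SE = 0.08)). In VCaP the smallest were those of the decapping factor DCP1A among the falls (−0.81 (adjusted p = 2.3e-06, SE = 0.05)) and of the helicase DDX6 among the rises (0.43 (adjusted p = 0.00261, SE = 0.08)).

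Among 11 genes of U7 and histone 3′ end formation 3 fell and none rose in PC3, and 7 fell and 1 rose in VCaP, or 27.3% called, near the 27.7% of all genes, and 72.7%, above the 45.8%. ZNF473, a zinc finger protein that binds LSM11, led in PC3 (−0.53 (adjusted p = 0.00358, SE = 0.09)). CPSF2, a subunit of the histone cleavage complex, stood at 105, 111 and 111 CPM in VCaP NSI and 72.8, 70.0 and 70.0 in siFOXA1, a change of −0.62 (adjusted p = 2.55e-05, SE = 0.06). The riser was FIP1L1 (0.18 (adjusted p = 0.0412, SE = 0.06)). Of the 9 minor spliceosome partners 8 were found, and 1 fell and 2 rose in PC3, and 1 fell and 1 rose in VCaP. That is 37.5% called in PC3, against 27.7% of all genes, and 25% in VCaP, below the 45.8% of all genes. RNPC3, the protein that bridges U11 and U12, rose in both lines, from 10.7, 9.91 and 11 CPM in PC3 NSI to 16.3, 19.2 and 16.1 in siFOXA1 and from 7.22, 8.37 and 5.72 CPM in VCaP NSI to 12, 12.2 and 11.1 in siFOXA1. Its changes were 0.70 (adjusted p = 0.00177, SE = 0.10) and 0.73 (adjusted p = 0.00148, SE = 0.13), opposite in sign to those of SNRNP25. TXNL4B fell in PC3 (−0.32 (adjusted p = 0.0229, SE = 0.08)) and ARMC7 in VCaP (−0.30 (adjusted p = 0.0439, SE = 0.11)).

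Several of these list genes were called in part of the 16 alternatives only. In PC3 these were CHERP in 11, ZRSR2 in 10, EDC4 in 14, TXNL4B in 8 and WDR77 in 15. In VCaP they were ARMC7 in 8, FIP1L1 in 7 and XRN1 in 15. The calls named above for SMN1, ZNF473 and RNPC3 in PC3, XRN1 in PC3, and WDR77, CHERP, RBM5, DCP1A, DDX6, CPSF2 and RNPC3 in VCaP held in all 16.

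The share of counts in mitochondrial genes was 13.1% to 15.7% in PC3 and separated the groups in VCaP, at 3.02% to 3.29% in NSI and 4.04% to 4.69% in siFOXA1. Leaving these genes out before scaling kept 22 of the 23 VCaP calls, without U2SURP, and 15 of the 20 PC3 calls, without SNRPE, SNRPB2, PHF5A, PUF60 and LSM2. The same 5 PC3 calls were lost with mitochondrial genes kept when ties were rounded to even. The cause of these losses was not tested. RNA integrity was above 7 for the samples selected, as the labels' protocols give it. As these are bulk cultures, fewer cells of one kind and less RNA per cell cannot be told apart.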

How the data were processed

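RNA was sequenced from 12 libraries, grouped and numbered by their titles. Per the file headers, the authors made the expected counts with featureCounts on GRCh37 with the GENCODE v28lift37 basic annotation, dividing fragments that mapped or overlapped several times among the genes, without strand in PC3 and by strand in VCaP. The submitters' processing notes list STAR 2.7.3a and Subread 2.0.0. The deposited estimated counts were not normalized, and 54.8% to 75.2% of the values above 0 held a fractional part; they were rounded to whole numbers, ties upward. Each line was fitted on its 6 libraries with edgeR 4.0.16 in R 4.3.3 (TMM factors, filterByExpr defaults of 10 and 15 counts, two-sided quasi-likelihood test, Benjamini-Hochberg over all genes tested). The SE is the size of the log2 fold change over the square root of F. Fold changes include a small prior count. The difference between lines is the interaction in a fit of 12 libraries. CPM values use the TMM factors, and CPM per kb divide them by the counted exon length. edgeR put the biological coefficient of variation at 14.9% (PC3), 9.89% (VCaP) and 12.8% (all libraries). The fitting was also run on simulated counts with the same spread for all genes and independent libraries. In PC3 same-numbered libraries deviated together, which the simulation leaves out, and its outcome is not used here.

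Replicates differed beyond counting noise, with a chi-square of 9.8 to 141 per degree of freedom, and none was counted as a copy. In PC3 the deviations of same-numbered libraries correlated at 0.41, 0.57 and 0.21 for replicates 1, 2 and 3, each above 0.1. The labels do not say what a number shares, so the main fits of both lines and of the difference used no pairing. Pairing by number enters only in the replicate block, which is given as an alternative. Per-library values are given for the 8 falling and 4 rising calls of smallest adjusted p in each line, every gene called in both lines or in the difference between lines, and SNRNP70, SF3B1, U2AF1 and SNRPN. From each related list the called gene of smallest adjusted p in each direction and line is named. The members, the lists and the tests were chosen with earlier results of these data known. Alternatives were DESeq2 1.42.0 (test and size factors), upper-quartile and library-size scaling, no filter, the block, each library left out, and, in each line, the fit of 12 libraries; summed rows for genes with shared exons, rounding ties to even and leaving out mitochondrial genes were added after seeing the data. Protein sequences were not used here. CENATAC and PECAM1 were not found under those names.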

Additional observations from a re-analysis of the deposited data

Results flagged for a closer look

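In 9 genes, differences between the lines passed the test of the difference itself, the VCaP effect minus the PC3 effect in edgeR's quasi-likelihood fit with Benjamini-Hochberg adjustment over all genes. These 9 are 19.1% of the 47 members, against 22.1% of all genes tested, so the share is not above the background. They are given as log2 differences with no explanation.

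The response was higher in VCaP for SNRPF (0.55), SNRPA1 (0.74), SNRPB2 (0.69), SF1 (0.44), U2AF2 (0.42), LSM7 (0.86) and LSM10 (0.84). For 6 of these 7 the siFOXA1 effect was lower than 0 in PC3 and between 0.00 and 0.39 in VCaP, and for U2AF2 it was lower than 0 in both. The response was lower in VCaP for LSM11 (−1.13) and SNRNP48 (−0.61), which had negative effects in each line. Line cannot be told apart from kit, dose, medium and counting in any of them.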

How the results depend on the processing

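The number of PC3 genes called was 20 and moved to 12 with library size alone (25.5% against 27.1% of all genes, where it was 42.6% against 27.7%) and to 35 with the replicate block (74.5% against 42.8%); leaving out 1 library gave 5 to 29. The PC3 median stayed within −0.45 to −0.23 in all alternatives. In VCaP 23 genes were called, and 14 in the fit of all 12 libraries, or 29.8% against 28% of all genes. The median moved from −0.16 to −0.11 with upper-quartile factors, where the median of all genes was 0.07. In the difference between lines 9 genes were called (19.1% against 22.1% of all genes), and 24 with the replicate block (51.1% against 29%). With 1 library left out the count ran from 5 (10.6% against 17.3% to 19.6% of all genes) to 14 (29.8% against 23.4%). The causes were not tested. VCaP same-numbered libraries correlated at 0.09, 0.04 and 0.35, of which only that of replicate 3 was above 0.1. These correlations do not settle what a number shares. The replicate block in VCaP called 23 genes, or 48.9% against 50% of all genes, and 21 of the 23 were shared with the fit without it. U2AF2 and U2SURP were lost, and SF3A1 and SF3B5 were added as higher. Of the PC3 calls 5 of 20 held in all 16 alternatives, of the VCaP calls 14 of 23, and of the differences 4 of 9 in all 22.

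Reversed signs were seen only for changes near 0 that were not called. In PC3 SF3B4 was 0.01 with DESeq2 size factors and in the DESeq2 test, 0.06 with upper-quartile factors, 0.09 with library size alone, 0.04 in the fit of all 12 libraries, 0.03 with ties rounded to even and without mitochondrial genes, and −0.01 to 0.04 with 1 library left out. With 1 PC3 library left out SNRNP35 ran from −0.03 to 0.28 and LSM3 from −0.33 to 0.09. In VCaP SNRNP70 was 0.00 with DESeq2 size factors and in the DESeq2 test, −0.01 with library size alone and with no filter, and −0.04 to 0.04 with 1 library left out. SF3A3 was −0.01 in those 4 settings and −0.05 to 0.04 with 1 library left out. With upper-quartile factors SF3B6 was 0.01, SF1 0.05 and LSM1 0.04; in the fit of all 12 libraries SF1 and LSM1 were 0.02. With 1 VCaP library left out the ranges were −0.05 to 0.02 for SF1, −0.06 to 0.05 for LSM1, −0.01 to 0.12 for LSM6 and −0.19 to 0.00 for SF3A2. How far depth limits the calls was not tested.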
